A study of Homo sapiens with 2 samples.

Results

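The genes described here encode the proteins of the cytosolic ribosome. They were chosen by symbol alone, as every gene named in the probe annotation of either array whose symbol has the form of a large subunit (RPL) or small subunit (RPS) protein, including the stalk proteins RPLP0 to RPLP2 and RPSA. This gave 80 of the 17280 genes named on the arrays, 49 of the large and 31 of the small subunit, with 35 on the chIP1 array and 45 on the chIP2 array. The pattern takes in the variant copies RPL3L, RPL10L, RPL39L and RPS27L, and RPS27A, which is made fused to ubiquitin.

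ChIP-on-chip, which is chromatin immunoprecipitation read out on promoter microarrays, was used by the study to map GATA1. The cells were Meg-01, a line from a human megakaryoblastic leukaemia, and had received no treatment. DNA recovered with the GATA1 C-20 antibody (IP) was labelled with Cy5 and DNA recovered with normal goat IgG with Cy3, and each probe, on chIP1 or chIP2, was read in 1 hybridization, with no dye swap, no replicate and no second cell line. The IgG channel is the only background, and a difference between the antibodies in non-specific recovery of DNA cannot be told apart from GATA1 occupancy.

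Ribosomal proteins are made in balanced amounts, and most are encoded by a single expressed gene scattered over the genome, accompanied by many processed pseudogenes. Their promoters are very active in growing cells, mostly lack a TATA box and start transcription within a run of pyrimidines, which gives the messenger RNA its terminal oligopyrimidine (TOP) start. Loss of 1 copy of several of these genes causes Diamond-Blackfan anaemia, a failure of red cell production. GATA1 is the transcription factor that drives the red cell and megakaryocyte lineages, and its own mutation can give the same anaemia.

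The promoters on which the results turn are shown first. Sequences came from RefSeq promoter windows on GRCh38.p14, in which 64 of the 80 genes were matched by symbol, and each stretch runs 5′ to 3′ on the gene's strand from 150 bases before the start to the 10th transcribed base. Capitals mark GATA and its reverse complement TATC, and the ETS-type letters CCGGAA and CTTCCG with their reverse complements. The first set holds RPL13A and RPL22, with the 2 highest start levels of the large subunit, RPS3A, with the highest window of all members, and RPS14 and RPS19, the genes of the 5q- syndrome and of the most frequent form of Diamond-Blackfan anaemia. They lie at chr19:49487458-49487617 (plus strand), chr1:6199586-6199745 (minus strand), chr4:151099478-151099637 (plus strand), chr5:150449730-150449889 (minus strand) and chr19:41860105-41860264 (plus strand).
RPL13A: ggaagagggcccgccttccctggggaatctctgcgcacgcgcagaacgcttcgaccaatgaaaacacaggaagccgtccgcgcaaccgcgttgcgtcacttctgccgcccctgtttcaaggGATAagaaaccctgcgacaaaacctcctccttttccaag
RPL22: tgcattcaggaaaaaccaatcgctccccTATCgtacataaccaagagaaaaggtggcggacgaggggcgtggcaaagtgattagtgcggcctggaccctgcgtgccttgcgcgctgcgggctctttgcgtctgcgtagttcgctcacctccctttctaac
RPS3A: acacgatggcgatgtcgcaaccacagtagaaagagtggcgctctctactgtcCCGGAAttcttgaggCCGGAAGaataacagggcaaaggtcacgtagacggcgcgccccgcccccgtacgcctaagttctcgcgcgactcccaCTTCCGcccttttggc
RPS14: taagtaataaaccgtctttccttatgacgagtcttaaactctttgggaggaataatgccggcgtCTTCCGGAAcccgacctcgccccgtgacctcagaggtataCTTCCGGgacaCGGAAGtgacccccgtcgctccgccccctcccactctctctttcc
RPS19: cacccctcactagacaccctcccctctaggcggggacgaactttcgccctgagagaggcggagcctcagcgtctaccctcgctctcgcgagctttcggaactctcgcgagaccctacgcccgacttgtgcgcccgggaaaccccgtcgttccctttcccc
The second set holds RPL24, RPSA and RPL10L, which lay near the low end of the start levels. They lie at chr3:101686709-101686868 (minus strand), chr3:39406570-39406729 (plus strand) and chr14:46651772-46651931 (minus strand).
RPL24: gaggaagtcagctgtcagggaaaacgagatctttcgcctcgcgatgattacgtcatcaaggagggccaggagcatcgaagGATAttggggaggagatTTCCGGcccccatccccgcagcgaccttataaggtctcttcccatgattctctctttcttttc
RPSA: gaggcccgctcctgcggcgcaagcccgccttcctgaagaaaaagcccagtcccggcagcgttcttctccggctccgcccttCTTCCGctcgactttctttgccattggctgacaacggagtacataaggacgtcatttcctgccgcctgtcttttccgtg
RPL10L: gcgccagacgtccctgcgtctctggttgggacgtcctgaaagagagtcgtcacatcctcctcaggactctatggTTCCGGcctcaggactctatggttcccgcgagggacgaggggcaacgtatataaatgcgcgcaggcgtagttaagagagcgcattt

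These stretches show what the family shares and where members part. In 7 of the 8, all of the first 5 transcribed bases are pyrimidines, whereas RPL10L has 1. RPL13A holds GATA 29 bases before the start and no ETS-type letters in this stretch, although its longer RefSeq window holds both CCGGAA and CTTCCG on one strand or the other. RPS3A has CCGGAA at 98 and 83 bases before the start and CTTCCG ending at the base before the start, and RPS14 has 3 such places in this stretch. RPS19 has none of the marked letters here. RPL24, among the lowest start levels, also holds GATA, 70 bases before the start.

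Over the 79 RefSeq windows of the 64 matched genes, each from 250 bases before to 50 after the start, C followed by 4 pyrimidines opened transcription in 58.2%, against 4.07% of all 35116 windows in the table. CCGGAA stood on either strand in 53.2% against 17.2%, and CTTCCG in 59.5% against 19.5%, and the 2 motifs overlap in CCGGAAG. The TATA box letters TATAAA lay between 45 and 10 bases before the start in 3.80% against 2.43%. The letters of the GATA1 motif, which are GATA with A or T before it and A or G after it, stood on either strand in 16.5% of the ribosomal protein windows against 25.0% of all windows, and the bare GATA in 55.7% against 49.7%. Median GC content was 59.3% against 58.7%. Over the 14626 windows of genes named on the arrays, the full GATA1 letters stood in 20.2%, bare GATA in 43.5%, CCGGAA in 20.6%, CTTCCG in 23.2% and the pyrimidine start in 4.77%, and the median GC content was 62.7%. The ribosomal protein windows thus held the full GATA1 letters in a smaller share than either background, while their GC content lay above that of all windows and below that of the array genes. This describes letters in these windows and not binding.

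Each value below is log2(IP/IgG), the log2 of the Cy5 over the Cy3 processed signal, centred so that each array has a median of 0. A window is the mean of 3 neighbouring probes, assigned to the gene of its centre probe, and is called IP-side at 1 or above (2-fold toward the GATA1 IP) and IgG-side at -1 or below. The start level of a gene is the mean of its probes within 500 bp of the annotated start. With 1 hybridization per probe there is no test. The SD of the difference between the arrays was 0.19 over 2453 control probes present on both, which is the only repeat measurement in the data.

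The ribosomal protein genes stood toward the GATA1 IP at their starts, with a moderate level. An IP-side window within 500 bp of the start was found in 37 of 77 genes with such a window (48.1%), against 24.6% of all genes, under median centring. An IgG-side window at the start was found in 1 of the 77, RPL10L, against 9.33% of all genes. Over all genes this share fell with probe brightness, as given below, and most members were bright. The median start level was 0.78 over 78 genes (SD over genes 0.46), against 0.29 over 16724 genes (SD 0.58), and 75 of the 78 levels were above 0 (96.2% against 73.7%). On this scale 67 members lay above the median of all genes and 50 reached the upper quartile of all genes, 0.62.

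This excess at the 2-fold line depended on how the arrays were scaled. The study's methods name a normalization within each array that reads as lowess. With a loess fit on intensity the count fell to 22 of 77 (28.6%), close to the 23.5% of all genes. All 22 were among the 37. The median start level was then 0.60 against 0.27. With normexp background correction the count was 48 of 77 (62.3%) against 17.4%. The start level above the all-gene median was therefore seen under each of these 3 scalings, while the share of genes past 2-fold was near the background under loess. With median centring and a 3-fold line in place of 2-fold, 6 of 77 members (7.79%) had an IP-side start window, also near the 5.72% of all genes.

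**Figure D1:**
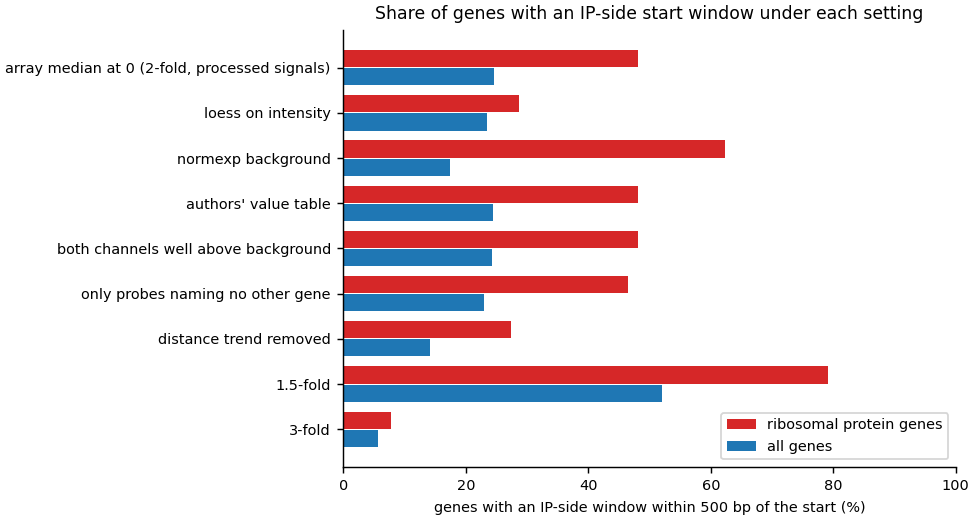
Share of genes (%) with a window of at least 2-fold (or the fold named) toward the IP within 500 bp of the start, for the ribosomal protein genes (red) and all genes (blue) under 9 settings. The red bar stands at 48.1% against 24.6% with the array median at 0, and at 28.6% against 23.5% after loess.

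Over the whole tiled region, the starts included, the comparison with all genes turned with the scaling. An IP-side window was found in 47 of 79 genes (59.5%), against 56.3% of all genes, and the median of the highest windows was 1.07 against 1.08. After loess the count was 38 (48.1%) against 57.7%, and the medians were 0.92 and 1.10. With normexp it was 51 (64.6%) against 32.6%, and the medians were 1.11 and 0.82. With median centring, very high windows were less frequent, with 8 of 79 at 3-fold or above (10.1%) against 20.4% of all genes, although members carried fewer windows, a median of 15 against 22. An IgG-side window was found in 20 of 79 (25.3%) against 52.7% of all genes, with the same difference in the number of windows. Where a member had an IP-side window, its highest window lay within 500 bp of the start in 33 of 47 genes (70.2%), against 27.6% over all genes with an IP-side window.

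The profile along the gene had its peak immediately before the start. Between 100 bp before the start and the start itself, the mean was 1.06 over 52 probes of 50 members, against 0.33 over all genes. It was 0.94 in the 100 bp further upstream and 0.87 in the first 100 bp of the gene. Beyond 900 bp downstream the mean was 0.08 or lower in each step of 100 bp as far as 1500 bp. Upstream the decline was less even, with means of 0.23 to 0.39 in the steps from 1400 to 900 bp before the start, on 11 to 21 probes each, where all genes lay below 0. From 4000 to 2000 bp upstream the median level of 57 members was -0.18, against -0.16 for all genes. The start exceeded the upstream stretch in 48 of 56 members, by a median of 1.04, against 69.1% of all genes and a median of 0.41. The members thus had an ordinary level upstream and a raised one at the start. With a start zone of 1000 bp in place of 500 bp the median difference was 0.80, against 0.33 for all genes.

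**Figure D2:**
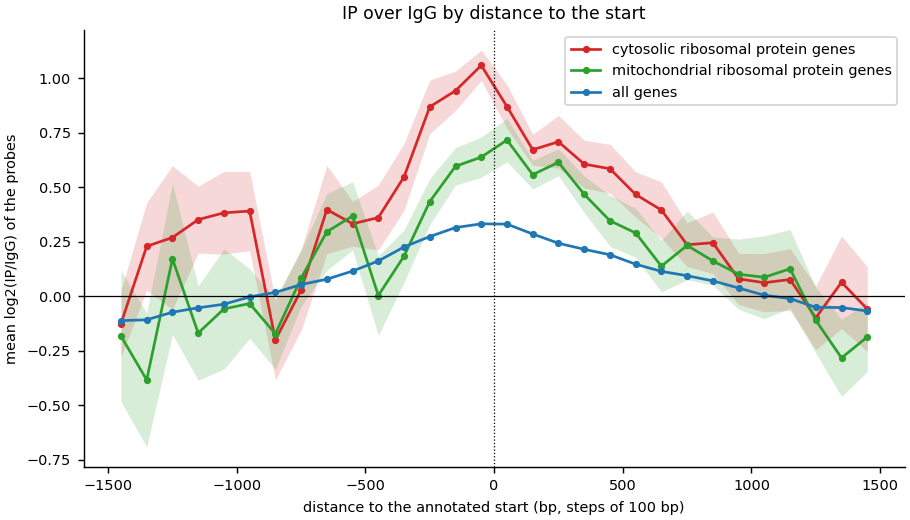
Mean log2(IP/IgG) of probes in steps of 100 bp from the annotated start, for cytosolic ribosomal protein genes (red), mitochondrial ribosomal protein genes (green) and all genes (blue), with the start at 0. Shading is the standard error over probes, which are not independent within a gene, and the red line peaks at 1.06 in the step before the start where the blue line is at 0.33.

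The start probes of these genes were also bright in both channels. Over 310 start probes the IP channel had a median log2 signal of 12.31, against 10.43 over all start probes. For IgG the medians were 11.66 and 10.21. Of the 77 genes with a start window, 64 lay in the brightest of 4 equal classes of genes by intensity. In that class 30 of 64 members had an IP-side start window (46.9%), against 29.8% of all its genes, and the median start level was 0.78 against 0.50. After loess the same class gave 15 of 64 (23.4%) against 19.9%, and 0.60 against 0.33. In the next class, which held 9 members, 6 had an IP-side start window under either scaling (66.7%), against 22.9% of all genes with median centring and 22.4% after loess. With median centring, IgG-side start windows were found in 22.3% of all genes in the dimmest class and 0.778% in the brightest. In the brightest class 0 of 64 members had one, so there the members were near the share of all genes. Intensity thus moved with membership of this family, and its part in the start level was not tested beyond these classes. No probe of a member was saturated.

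**Figure D3:**
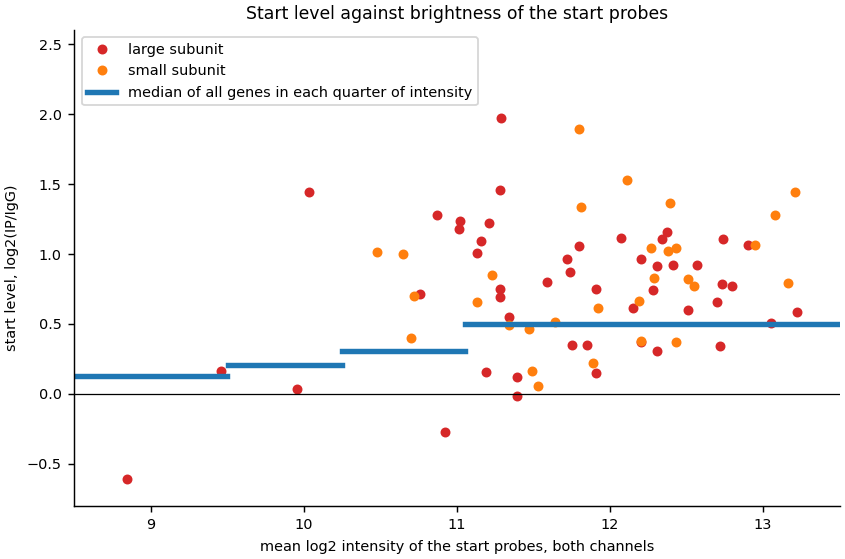
Start level, log2(IP/IgG), of each of 78 ribosomal protein genes against the mean log2 intensity of its start probes over both channels, with large subunit genes in red and small subunit genes in orange. Blue bars give the median of all genes in each of 4 equal classes of intensity, the upper one at 0.50, where the members' median was 0.78.

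Both arrays gave the same picture under median centring. On chIP1, 17 of 33 genes had an IP-side start window (51.5%) against 26.3% of all genes there, with a median start level of 0.85 against 0.32, and all 34 start levels were above 0. On chIP2, 20 of 44 had one (45.5%) against 22.9%, with a median of 0.72 against 0.27. The arrays carry different genes, so this is a comparison of gene sets and not a repeat.

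Proteins of the large subunit form the peptidyl transferase side of the ribosome. With median centring, 21 of the 48 large subunit genes with a start window were IP-side (43.8%), against 24.6% of all genes. The median start level was 0.76. RPL13A, a protein also known for translational control in inflammation, had the highest start level among members with at least 3 start probes, at 1.97. Its 3 probes read 1.97, 2.16 and 1.79 at 336, 165 and 13 bp before the start, so all were close to 4-fold. They form a window at chr19:54682318-54682686 in the coordinates of the array, in the promoter. RPL22, a binding partner of a viral RNA and a gene mutated in leukaemia, had a start level of 1.46 over 6 probes that ranged from 0.85 to 2.01. The 3 probes from 292 bp before to 17 bp after its start were the high ones, at 1.72 or above, and the annotation also assigns 2 of them to a second gene in a divergent promoter. The upstream stretch of RPL22 was high as well, at 1.71 over 4 probes. Those probes were dimmer than its start probes, with a mean log2 intensity of 9.16 against 11.28. The start minus upstream level of RPL22 was -0.26, so its start did not exceed its upstream stretch. RPL13 had 1.45, with 0.95, 1.62 and 1.77 at 451, 209 and 32 bp before the start. Its value rose toward the start.

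At the other end of the large subunit, RPL24 had a start level of 0.15, with 6 probes between -0.42 and 0.56, although its start probes were as bright as those of the family (11.91 against a median of 11.87). RPL38, a protein that affects the translation of Hox messenger RNAs, had 0.16. Its probes split by side, with -1.10 and -0.45 at 414 and 305 bp before the start and 0.67 to 0.85 at the 3 probes after it. RPL4 and RPL17 were at -0.01 and -0.27 on 1 probe each. These low levels therefore included genes without any high probe, such as RPL24, and genes whose high and low probes averaged out, such as RPL38.

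Proteins of the small subunit form the decoding side and bind the messenger RNA. With median centring, 16 of 29 genes with a start window were IP-side (55.2%), against 24.6% of all genes. The median start level was 0.81. RPS29, a small zinc-binding protein, had 1.37, with its 4 probes between 1.09 and 1.51, so every start probe was past 2-fold. RPS28 had 0.06, the lowest of this subunit, with 1.49 and 0.46 at 18 bp before and 130 bp after the start and -0.81 and -0.92 at 327 and 440 bp after it, so its probes fell along the gene. With a start zone of 250 bp RPS28 was at 0.98. The probe at 18 bp before its start is also assigned to a second gene, and its IP-side start window, at 1.03, was centred there. With probes that name another gene left out, RPS28 was at -0.42.

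RPS3A and RPSA are small subunit proteins with roles outside the ribosome, RPSA also being the laminin receptor precursor and the gene of isolated congenital asplenia. RPS3A had a start level of 1.53 on 2 probes, 1.73 and 1.32. Its highest window, at 2.25 the highest of all members, was not at the start but centred 3393 bp upstream, at chr4:152374832-152375094 in the array's coordinates, in a stretch annotated as promoter. The probes there read 1.83, 1.14 and 3.79 at a mean log2 intensity of 8.34, dimmer than the start probes, and the highest value came from 1 probe. RPSA had a start level of 0.16 over 6 probes, which the annotation measures from 2 different starts. The probes at 457, 341 and 2 bp before the first start read 0.24, 0.73 and 1.83. Those at 354, 247 and 85 bp before the second, further along chromosome 3, read -0.70, -0.70 and -0.40. The low start level of RPSA is thus a mean over a start with values above 0 and one with values below 0.

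**Figure D4:**
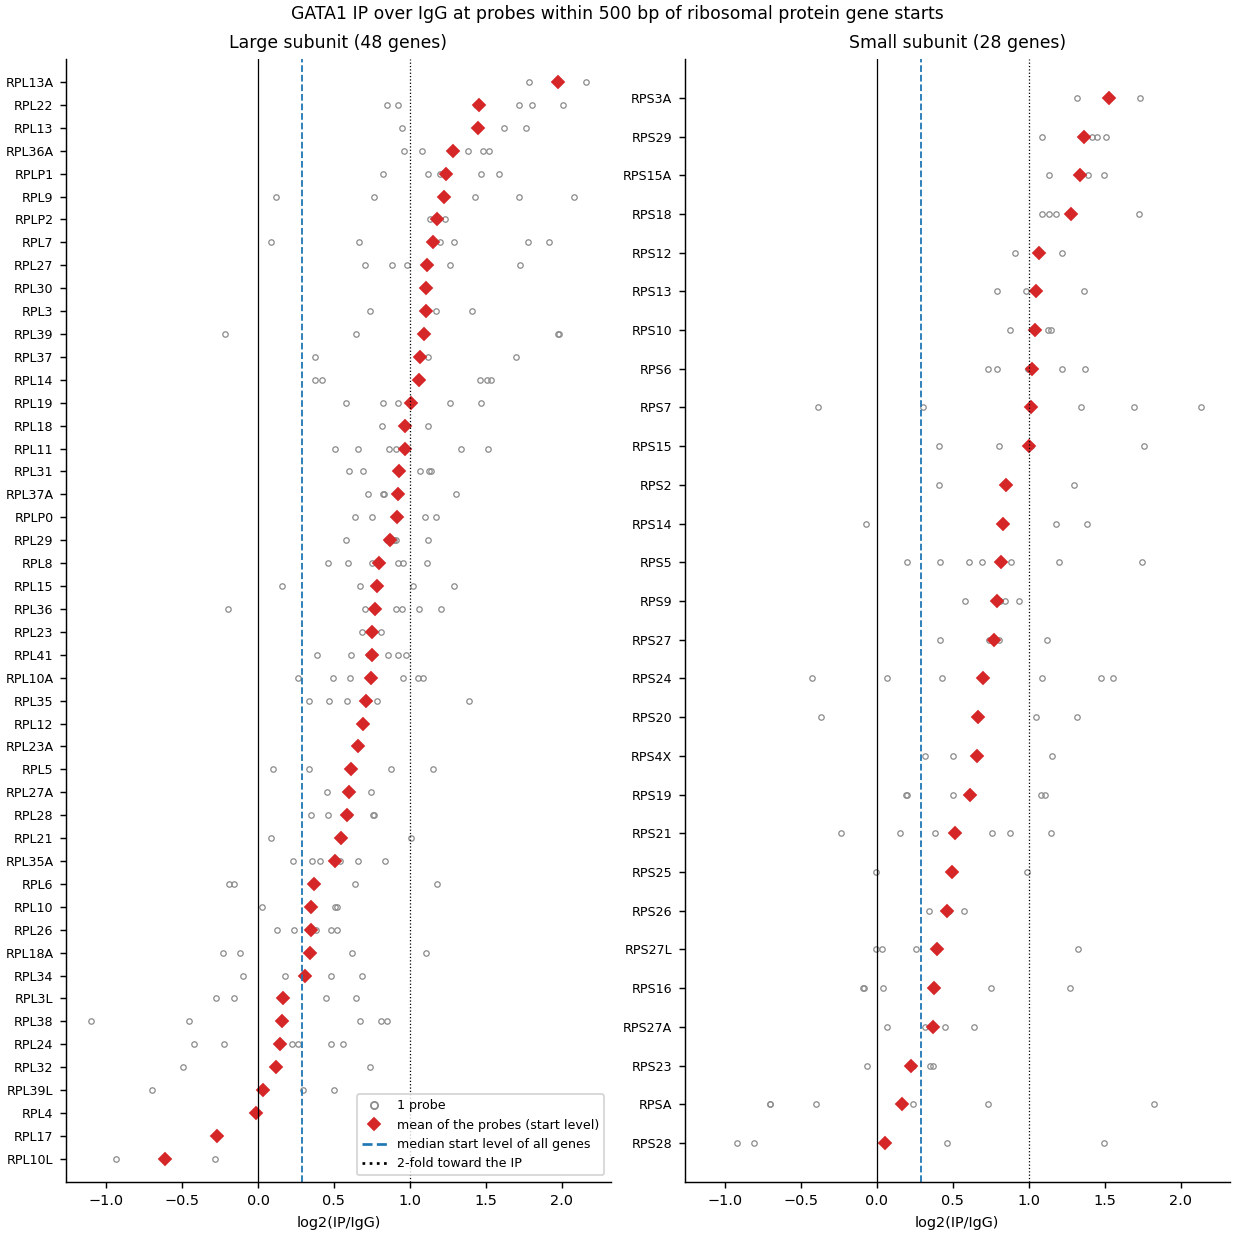
log2(IP/IgG) at the probes within 500 bp of the start (open circles) and their mean, the start level (red diamonds), for 48 large and 28 small subunit genes in order of level. The dashed line is the median of all genes, 0.29, the dotted line marks 2-fold, and 65 of the 76 diamonds lie to the right of the dashed line.

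The stalk of the large subunit recruits the translation factors that use GTP, and is built from RPLP0, RPLP1 and RPLP2. All 3 were raised at the start and, with median centring, had an IP-side start window, as had 24.6% of all genes. RPLP0, the base of the stalk, had 0.92 over 4 probes from 0.64 to 1.17. RPLP1 had 1.24 over 6 probes from 0.82 to 1.59, and RPLP2 had 1.18 on 2 probes, 1.23 and 1.13, both also assigned to a second gene. The 3 start levels lay within the spread of the probes of RPLP1.

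The variant copies RPL3L of muscle, RPL10L of testis, RPL39L and RPS27L stood below their usual counterparts. RPL3L was at 0.17 and RPL3 at 1.10. RPL10L was at -0.61, on 2 probes of -0.94 and -0.28, and RPL10 at 0.35. RPL39L was at 0.03 and RPL39 at 1.10, the latter with 1.98 and 1.97 at 147 and 19 bp before the start and -0.22 at 406 bp. The copy was lower by 0.94, 0.96 and 1.06 in these 3 pairs. RPS27L, a target of p53, was at 0.40 and RPS27 at 0.77, a smaller gap of 0.37. The probe ranges overlapped for RPS27L and RPS27 and for RPL39L and RPL39, but not for RPL3L and RPL3 or RPL10L and RPL10. The copies were also dimmer, with mean log2 intensities of 9.46, 8.84, 9.96 and 10.70 against 12.74, 11.85, 11.16 and 12.55, and the part of brightness in these gaps was not tested. RPL10L also had the lowest window of the family, -2.10, centred 1600 bp downstream of its start.

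The other low windows lay away from the start as well. RPL24 reached -1.88 at 2521 bp upstream, RPL27A -1.72 at 3393 bp upstream, RPS12 -1.51 at 2688 bp upstream and RPS4X -1.48 inside the gene at 2968 bp. High windows mostly lay at the start. After RPS3A came RPL13A at 1.97, RPL22 at 1.84, RPL9 at 1.74 and RPS7 at 1.72, each centred within 300 bp upstream of the start.

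Of the genes in which mutation is known to cause Diamond-Blackfan anaemia, 18 were on the arrays. Under median centring, 11 of these had an IP-side start window (61.1%), against 24.6% of all genes. All 18 start levels were above 0, as were 73.7% of those of all genes, and their median was 0.78. The 60 members outside the list also had a median of 0.78, with an IP-side start window in 26 of 59 (44.1%), so the level did not separate the list from the rest. The order ran from RPS29 at 1.37 and RPS15A at 1.34 through RPL27 at 1.11, RPS10 at 1.04, RPS7 at 1.02, RPL11 and RPL18 at 0.97 each and RPL31 at 0.92. RPL15 at 0.78, RPS27 at 0.77, RPL35 at 0.71, RPS24 at 0.70, RPL5 and RPS19 followed. The lowest were RPL35A at 0.51, RPS26 at 0.46, RPL26 at 0.35 and RPS28 at 0.06. RPS19, the gene mutated most often in this anaemia, had 0.61, with 1.10 and 1.08 at 157 bp before and 107 bp after the start and 0.50, 0.19 and 0.20 further into the gene. RPL5 and RPL11, which with 5S RNA bind MDM2, were at 0.62 and 0.97. Neighbours in this order differed by less than the SD of 0.19 between arrays, apart from the step between RPS15A and RPL27 and the step to RPS28. That SD comes from control probes and is not the error of a start level. The SD over start probes was 0.15 in RPS15A, 0.40 in RPL27 and 1.14 in RPS28. Whether any of these steps is beyond error was not tested.

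RPS14, whose loss contributes to the anaemia of the 5q- syndrome, had a start level of 0.83 over 4 probes. They read -0.07 and 0.82 at 341 and 119 bp before the start and 1.38 and 1.18 at 134 and 247 bp after it, so its high probes lay on the transcribed side. The level was 0.55 after loess. RPS14 thus resembled the family's median, and RPS19 lay somewhat below it.

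Related gene groups gave lower levels with lower or similar brightness. Shares in this paragraph are with median centring, where 24.6% of all genes had an IP-side start window. Among 74 mitochondrial ribosomal protein genes, which serve the separate ribosome of mitochondria, 18 had an IP-side start window (24.3%), near that share. Their median start level was 0.51 and their median start intensity 11.57. Among 16 translation factor and related genes whose messenger RNAs have a TOP start, 5 had one (31.2%) and the median was 0.54, from EIF3S5 (now EIF3F) at 2.26 to EIF3S6 (now EIF3E) at 0.16. EEF1A1, which carries aminoacyl-tRNA, was at 0.84. Among ribosome assembly factors, 9 of 25 had one (36.0%) and the median of 26 was 0.70, with UTP14A at 2.08 and the nucleolar protein NCL at 1.06. FAU, which encodes a ribosomal protein fused to a protein like ubiquitin, was at 0.27, and GNB2L1, which encodes the ribosomal scaffold RACK1, was at 0.99, and neither had an IP-side start window. Olfactory receptor genes, which are known from sensory neurons of the nose, had a median of -0.28 over 285 genes. Their start probes were dim, with a median start intensity of 8.92 against 11.87 for the members and 10.25 for all genes. These differences between groups were not tested.

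**Figure D5:**
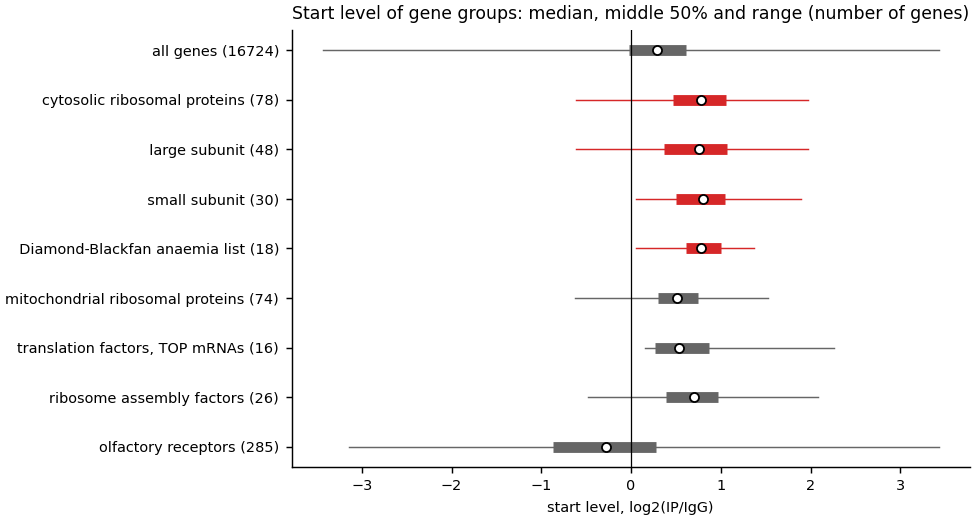
Start level, log2(IP/IgG), of gene groups, with the median as a white point, the middle 50% of genes as a thick bar and the range as a line, and the number of genes in brackets. The cytosolic ribosomal protein genes and their subsets (red) have medians from 0.76 to 0.81, all genes 0.29 and olfactory receptors -0.28.

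The levels were also set against the letters in the promoters. The 10 members with the full GATA1 letters in a RefSeq window had a median start level of 1.03, from 0.37 to 1.45, and the 52 matched members without them 0.76, from -0.61 to 1.97. For bare GATA the medians were 0.77 with it (37 members) and 0.78 without (25 members). For CCGGAA or CTTCCG they were 0.77 (48 members) and 0.81 (14 members). For the pyrimidine start they were 0.78 (44 members) and 0.70 (18 members). For TATAAA before the start they were 0.06 (3 members) and 0.77 (59 members). In each split the ranges overlapped, and RPL13A, the highest, lacked the full GATA1 letters in its window. None of these gaps was tested.

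Neighbouring genes and embedded small RNAs touch many of these promoters. Of the 310 start probes, 40 in 21 members were also assigned to another gene, and with those probes left out the median start level was 0.76. Small nucleolar RNAs, which guide modification of ribosomal RNA, were named in the annotation of 29 members (36.2%), against 0.758% of all genes. The median start level was 0.75 with such an RNA and 0.78 without.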

How the data were processed

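The members and gene lists were chosen with earlier results of these data known. Intensity values were deposited by the authors as Agilent Feature Extraction 9.5.3.1 output, in which the scanner software had removed a spatial background and scaled the dyes linearly. The authors' value table holds log10 of Cy5 over Cy3, which matched the scanner's log ratio and served as an alternative. The study's methods name intra-array normalization and peak calling in Chip Analytics, and those peaks were not used here.

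Each kept probe was given log2 of the processed Cy5 over Cy3 signal minus its array's median. Control spots, non-uniform spots and probes not well above background in either channel were left out, keeping 237004 of 237210 probes on chIP1 and 236864 of 237201 on chIP2. Windows joined 3 neighbouring probes, each outer one starting within 1000 bp of the centre probe, so a window could span more than 1000 bp. Distances and places came from the probe annotation, and the genome build of the array coordinates is not given in the sources used here. Genes named were the 5 highest and 5 lowest start levels (at least 3 start probes) and windows, the Diamond-Blackfan list, RPS14, RPSA, RPS3A, the copies with their counterparts and the stalk genes. RPL4, RPL17 and members of other lists were named after their values were seen. RPL7A and RPS3 had no start probe. Some genes that fall under this rule are counted in the totals and not reported here by name. Loess (span 0.3) and normexp (offset 50) used limma 3.58.1 in R 4.3.3, and other steps used pandas 2.3.3 in Python 3.11.15. Window calling was run on simulated ratios with independent noise and large added shifts. That noise had a smaller SD than the real ratios, which was 0.97 on each array. The simulation therefore checked the code and not calls near the 2-fold line in these data. Probe number limits precision. Probes in exons can also bind processed pseudogenes, and this was not tested.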

Additional observations from a re-analysis of the deposited data

How the results depend on the processing

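Of 85 values of the 8 family summaries under other settings, 60 stayed within 1.5 times (counts) or the SD of 0.19 (levels). The other 25 moved, and no level changed sign. These labels cover the members' own values and not their comparison with all genes, which did turn. For IP-side windows over the whole region it was 59.5% against 56.3% with median centring and 48.1% against 57.7% after loess. No paired analysis was possible because each probe was read in 1 hybridization, and no replicate could be left out. Main values, whose all-gene shares are given above, were 47 genes with an IP-side window and 20 with an IgG-side window. At the start they were 37 and 1. Loess gave 22 IP-side start windows (28.6% against 23.5%). Normexp gave 5 genes with an IgG-side window (6.33% against 23.8% of all genes) and 0 at the start (against 2.99%). Removing the all-gene trend with distance gave 12 IgG-side windows (15.2% against 49.1%) and 21 IP-side start windows (27.3% against 14.2% of all genes). The start level was then 0.51 against 0.03, and the start minus upstream level 0.61 against -0.04. Single probes gave 72 IP-side genes (90% against 86.1% of all genes) and 47 IgG-side genes (58.8% against 81.1%). The median highest value was then 1.51 against 1.73. Windows of 5 probes gave 28 IP-side genes (35.9% against 33.2%) and 5 IgG-side genes (6.41% against 33.1%). At the start 0 were on the IgG side, against 5.93% of all genes. The median highest window was 0.87 against 0.80. At 1.5-fold there were 71 IP-side genes (89.9% against 84.4%) and 40 IgG-side genes (50.6% against 78.1%). At the start there were 61 (79.2% against 52.1%) and 4 (5.19% against 19.6%). At 3-fold there were 8 and 3 (10.1% and 3.80%, against 20.4% and 22.2% of all genes). At the start there were 6 (7.79% against 5.72%) and 0 (against 2.99%). A start zone of 250 bp gave 0 IgG-side start windows, against 5.69% of all genes. One of 1000 bp gave 2 (2.56% against 17.4%) and a start minus upstream level of 0.80 against 0.33. Of 368 start levels of 41 named genes under these settings, 97 moved by more than 0.19, and none of those at 2-fold or above changed sign. Some named genes below 2-fold did change sign, not all of them near 0. With a start zone of 1000 bp, RPS4X went from 0.66 to -0.09 and RPS26 from 0.46 to -0.02. RPL24 went from 0.15 to -0.065 after loess, and RPS28 from 0.06 to -0.42 with shared probes left out. With the distance trend removed, RPL38 was at -0.11 and RPSA at -0.10. Why the loess and normexp counts part was not tested.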
